A study of Mus musculus with 21 samples.

Results

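Loss of Aire was examined in AGF+ cells of mouse bone marrow, with 3 AireKO libraries set against 3 KI/+ libraries, 6 of the 21 libraries of the study. AGF-KI is a reporter allele of the gene Aire, and a cell in which the reporter is on is called AGF+. KI/+ mice are AGF-KI/+ and keep a second, untargeted Aire allele, while the mice labelled AireKO are AGF-KI/-, so every AGF+ cell of both groups carries a reporter allele. All mice were labelled as male C57BL/6 animals of 6 weeks, and 3 independent biological replicates per genotype were stated. The marrow AGF+ cells were sorted from the fraction without B220, with CD24 and with little or no CD11b. The remaining 15 libraries hold total dendritic cells (DCs) of KI/+ marrow, sorted by CD11c and MHC class II, and AGF+ and AGF− DCs of lymph node in both genotypes. No source used here says which bases of Aire the reporter allele and the minus allele lack.

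Aire, the autoimmune regulator, is a nuclear protein that acts with other chromatin proteins to switch on many tissue-restricted genes in medullary epithelial cells of the thymus, which removes self-reactive T cells. Some bone marrow-derived cells outside the thymus also express it, and its role there is less well known. Dnmt3l, the next gene on the opposite strand, encodes a catalytically inactive partner of the de novo DNA methyltransferases Dnmt3a and Dnmt3b that is best known from germ cells and embryonic stem cells.

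The 6 marrow AGF+ libraries held 4164451 to 5894732 counts each, and 3 counts in a library, the upper limit that a count of 0 allows, correspond to 0.535 to 0.764 CPM, the usual depth-scaled count. Levels below are CPM over normalised library sizes, and a level compares libraries for 1 gene, not genes with each other. In the 2 libraries numbered 2, 1 of each genotype, the X-inactivation transcript Xist stood at 2688 and 3046 CPM, against 0.255 to 2.68 CPM in the other 4. Genes of the Y chromosome (Ddx3y, Eif2s3y, Kdm5d and Uty together) reached at most 0.766 CPM in those 2 libraries and 329 to 462 CPM in the others. The libraries numbered 2 therefore go against the label male, and values without them are given wherever a call changed. Across the 6 libraries the replicates of a group differed by more than counting noise (chi-square per degree of freedom of 4.46 to 10.3 over 6 pairs).

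The sorted cells were checked against markers of DC types. The 18 markers of conventional type 1 DCs summed to 1535 to 1757 CPM. Among them the surface receptors Xcr1 (0 to 0.766 CPM) and Clec9a (0 to 0.191 CPM) were at or near 0, while the regulators Irf8 (192 to 312 CPM) and Batf3 (72.4 to 119 CPM) and the enzyme Naaa (9.63 to 43.2 CPM) were present. The 18 markers of type 2 DCs summed to 1094 to 1429 CPM, with the lectin Cd209a at 0.191 to 1.5 CPM and the lectins Mgl2 at 50.5 to 120 CPM and Clec10a at 19 to 33.1 CPM. Ccr7, the receptor that guides mature DCs to lymph nodes, was at 750 to 1214 CPM, and Cd74, the MHC class II invariant chain, at 2458 to 2966 CPM. The plasmacytoid DC marker Siglech was at 66.8 to 83.0 CPM.

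The start regions of Aire and Dnmt3l are shown first because these were the only genes that passed the test. Both lie on chromosome 10 of GRCm38, with Aire (ENSMUSG00000000731) on the minus strand from 78030022 to 78043610. Dnmt3l (ENSMUSG00000000730) lies on the plus strand from 78041947 to 78063622, so that their starts overlap. The 250 bases before the RefSeq start of Aire and before the first of 3 RefSeq starts of Dnmt3l (GRCm38.p6) are printed 5′ to 3′ on the strand of the gene. In the Aire sequence (chr10:78043611-78043860) capitals mark TATAAA on the strand of the gene, 29 bases before the start, and CCAAT on the other strand, read here as ATTGG, 131 bases before it. In the Dnmt3l sequence (chr10:78042037-78042286) capitals mark the 67 bases that are also exon of Aire.
Aire: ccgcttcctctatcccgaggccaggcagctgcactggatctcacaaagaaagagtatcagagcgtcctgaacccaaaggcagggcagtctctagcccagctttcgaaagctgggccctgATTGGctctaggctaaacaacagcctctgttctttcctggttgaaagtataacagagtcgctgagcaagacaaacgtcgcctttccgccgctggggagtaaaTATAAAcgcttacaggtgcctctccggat
Dnmt3l: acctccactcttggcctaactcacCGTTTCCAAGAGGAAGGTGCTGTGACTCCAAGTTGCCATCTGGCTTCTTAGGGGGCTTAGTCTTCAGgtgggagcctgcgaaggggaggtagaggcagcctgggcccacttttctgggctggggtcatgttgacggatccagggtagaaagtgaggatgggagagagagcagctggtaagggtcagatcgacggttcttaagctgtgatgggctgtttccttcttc
The TATA box letters TATAAA, the letters CCAAT of the box of that name and the GC box letters GGGCGG were searched on both strands. TATAAA occurs in 12.4% of 32851 mouse promoter windows, CCAAT in 33.8% and GGGCGG in 32.7%, and none of the 3 is in the Dnmt3l window shown. The window before the start of Dnmt3l at 78049842, not printed, holds GGGCGG on the other strand 78 and 22 bases before that start, and the window before the start at 78055335 holds none of the 3. The matches to motifs in the Aire window do not overlap each other. The shared 67 bases (78042061 to 78042127) are coding in Aire, where 13 annotated transcripts hold them, and noncoding in Dnmt3l, where 1 transcript does (Dnmt3l-204 of GENCODE vM21, which begins before the first RefSeq start). They are 1.75% of the exon bases of Aire and 2.24% of those of Dnmt3l. No source used here says whether the authors' counting used strand, and reads in that stretch could belong to either gene.

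Aire fell in AireKO cells. Its level was 115, 108 and 79.4 CPM in the KI/+ libraries and 11.5, 12.4 and 19.6 CPM in the AireKO libraries, a mean of 101 ± 19 against 14.5 ± 4.47 CPM (SD, n = 3 each). The 3 AireKO libraries were all low, with no overlap, and their mean was 14.3% of the KI/+ mean. The log2 fold change was -2.81 ± 0.22 (SE, 95% interval -3.29 to -2.33, edgeR quasi-likelihood test, Benjamini-Hochberg adjusted p = 3.5e-04). The remaining Aire signal rested on 58 to 77 counts per AireKO library. Total DCs of KI/+ marrow, whose mice keep an untargeted Aire allele, had 1.28, 0.820 and 0.965 CPM. Counts of the Aire gene in AireKO cells thus stayed above those of total DCs, and from which allele they came cannot be told from counts per gene.

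Dnmt3l rose in AireKO cells. It stood at 8.16, 8.62 and 8.03 CPM in KI/+ libraries and at 93.9, 76.9 and 137 CPM in AireKO libraries, a mean of 8.27 ± 0.309 against 103 ± 31.2 CPM (SD, n = 3 each). Every AireKO library was far above every KI/+ library, and the third AireKO library, highest in Dnmt3l, also kept the most Aire. The log2 fold change was 3.63 ± 0.24 (SE, 95% interval 3.10 to 4.17, edgeR adjusted p = 1.5e-04). In total DCs Dnmt3l was at 0 to 0.386 CPM.

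Both calls were tested again without the 3 marrow libraries numbered 2. With those left out, Aire had a log2 fold change of -2.67 and lost its call (edgeR adjusted p = 0.161), while Dnmt3l kept it at 3.83 (edgeR adjusted p = 0.0342). Leaving out 1 of the 6 libraries at a time kept both calls.

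**Figure D1:**
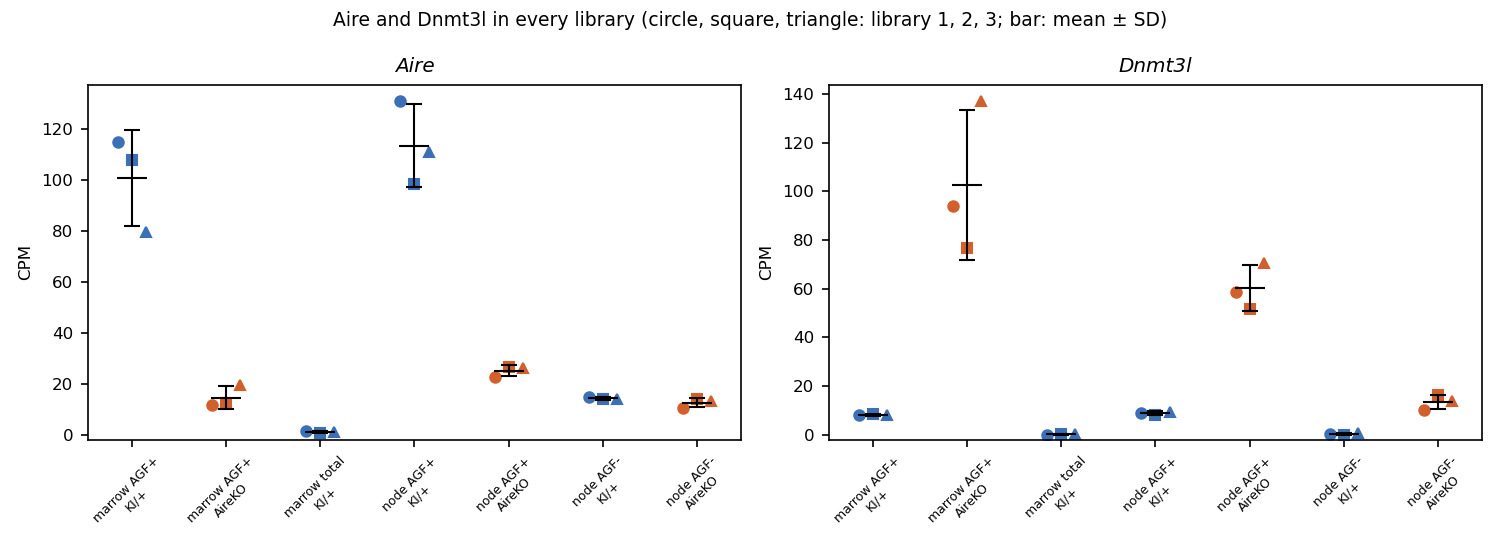
Levels of Aire (left) and Dnmt3l (right) in CPM in each of the 21 libraries of the 7 groups, where points are libraries and bars are the mean ± SD of 3. In marrow AGF+ cells Aire is lower and Dnmt3l higher in each AireKO library than in any KI/+ library.

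The same pair moved the same way in lymph node AGF+ cells, which share no library with the marrow comparison. There Aire fell from 114 ± 16.6 to 25.2 ± 2.1 CPM (log2 fold change -2.19 ± 0.15, edgeR adjusted p = 8.6e-06) and Dnmt3l rose from 8.98 ± 0.710 to 60.3 ± 9.47 CPM (2.73 ± 0.23, edgeR adjusted p = 1.1e-04, n = 3 libraries each). The test of the difference between the tissues gave a marrow minus lymph node log2 difference of -0.64 for Aire (unadjusted p = 0.0217) and 0.88 for Dnmt3l (unadjusted p = 0.0181), and neither passed after adjustment (edgeR adjusted p = 1). In lymph node AGF− cells Dnmt3l was at 0 to 0.634 CPM in KI/+ and at 10.3, 16.4 and 13.8 CPM in AireKO libraries. Its log2 fold change there was 5.16 (95% interval 4.25 to 6.06, edgeR adjusted p = 1.0e-04). Aire gave no call in AGF− cells (-0.19, interval -0.55 to 0.16, edgeR adjusted p = 0.883).

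Genes next to this pair on chromosome 10 gave no call. Of 19 genes listed around Aire, 17 were in the table and 15 were tested, and only Aire and Dnmt3l passed. Icosl, the ligand of the T cell costimulator ICOS and the next gene downstream of Dnmt3l, was at 514, 511 and 510 CPM in KI/+ and at 395, 443 and 523 CPM in AireKO libraries. The groups overlapped, and the log2 fold change was -0.17 (95% interval -0.45 to 0.11). Pfkl, the liver type of phosphofructokinase downstream of Aire, was at 126, 136 and 106 CPM in KI/+ and at 132, 89.5 and 199 CPM in AireKO libraries, with the third AireKO library highest (0.20, interval -0.33 to 0.72). The other 11 tested neighbours had log2 fold changes from -0.71 (Trpm2, a cation channel, at 1.07 to 6.93 CPM) to 0.10 (Cstb, the protease inhibitor cystatin B). The adjusted p was 1 for each of the 13 tested genes around the pair.

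Among all genes, 15503 were tested, and 2 passed (0.0129% of those tested), Dnmt3l higher (0.00645%) and Aire lower (0.00645%). DESeq2, limma voom with sample weights and the fit with replicate number as a block called the same pair. Without adjustment 259 genes had an edgeR p under 0.05 (1.67%), 143 of them higher (0.922%) and 116 lower (0.748%). The number was 127 by DESeq2 (0.819%), 860 by limma voom (5.55%) and 425 with the block (2.74%). For 1037 genes (6.69%) the 3 AireKO values did not overlap the 3 KI/+ values, 495 higher (3.19%) and 542 lower (3.5%). In lymph node AGF+ cells 2 of 15884 tested genes passed (0.0126%), the same pair, and 583 had an unadjusted p under 0.05 (3.67%). No gene passed the test of a different genotype effect in the tissues (0 of 17265 by edgeR, DESeq2 and limma voom). An unadjusted p under 0.05 was found there for 456 genes by edgeR (2.64%), 383 by DESeq2 (2.22%) and 1724 by limma voom (9.99%).

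The intervals show how large a change each gene could have had. Of the 9892 genes at 10 CPM or more, 9595 (97.0%) had a 95% interval that lay wholly within a 2-fold change in either direction, and 7287 (73.7%) one within 1.5-fold. Among the 5459 genes at 1 to 10 CPM the share within 2-fold was 53.0%. At 10 CPM or more 3 genes had an estimate of 2-fold or larger, namely Dnmt3l, Aire and Lif, and of 2603 genes at 100 CPM or more there were 0.

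**Figure D2:**
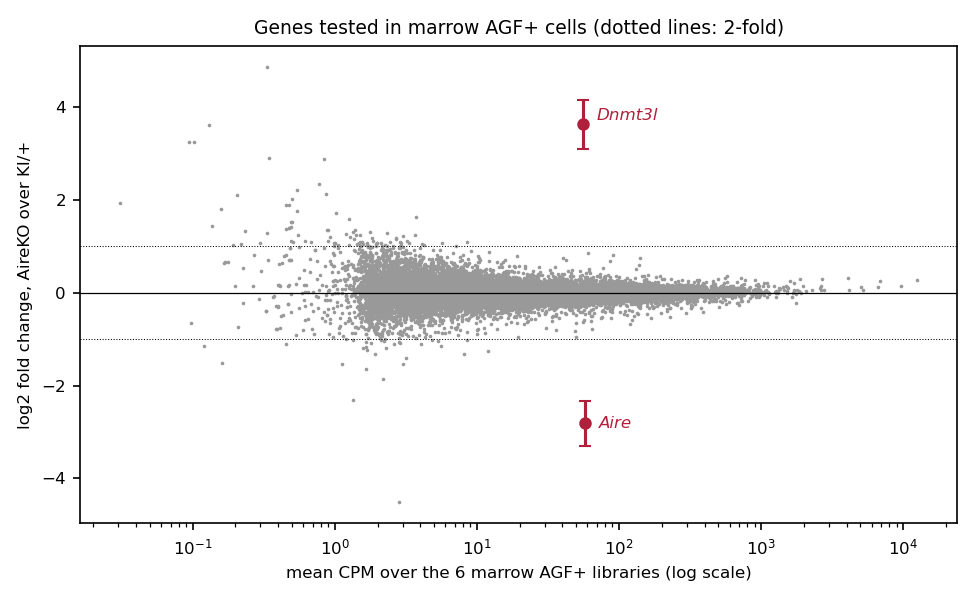
Each point is 1 of 15503 tested genes, with its mean level over the 6 marrow AGF+ libraries (CPM, log axis) and its log2 fold change of AireKO over KI/+. Bars are 95% intervals and are drawn only for Aire and Dnmt3l. Dnmt3l at 3.63 and Aire at -2.81 stand outside the band of the other genes at their level.

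The genes with the smallest p values short of the test are given as values only, since their adjusted p was 1 and 6.69% of all genes had groups without overlap. Among those lower in AireKO cells, Ehd3, an endocytic recycling protein, was at 48.3, 75.4 and 73.5 CPM in KI/+ and at 23.7, 38.9 and 40.0 CPM in AireKO libraries. Its log2 fold change was -0.95 (interval -1.45 to -0.45), and the block gave an edgeR adjusted p of 0.108, the smallest after Aire and Dnmt3l among the genes named here. Lif, a cytokine of the interleukin 6 family, was at 15.7, 21.6 and 13.7 CPM against 4.13, 12.8 and 4.33 CPM, with the second AireKO library closest to KI/+ (-1.25, interval -2.11 to -0.39). Mrc1, the macrophage mannose receptor, was at 89.7, 63.2 and 94.3 CPM against 62.5, 40.8 and 40.0 CPM, so that the groups nearly met (-0.78, interval -1.31 to -0.25). Tnni1, the slow skeletal muscle form of troponin I, was at 29.8, 47.3 and 38.5 CPM against 20.3, 24.1 and 23.4 CPM (-0.77, interval -1.20 to -0.33). Further genes on this side were the B cell and myeloid surface protein Cd180 (-0.55), the adaptor Lax1 (-0.68), the kinase Prkce (-0.51), Tpd52 (-0.45), the tetraspanin Tspan2 (-0.41) and Alas2, the erythroid form of the first enzyme of haem synthesis (-0.47).

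On the other side Neb, the giant thin filament protein nebulin of muscle, was at 105, 114 and 112 CPM in KI/+ and at 184, 145 and 173 CPM in AireKO libraries (log2 fold change 0.61, interval 0.22 to 1.00). Neb and Tnni1 are both sarcomere genes, and their values lay on opposite sides. Adgre1, a macrophage adhesion receptor, was at 59.8, 62.8 and 67.1 CPM against 99.0, 77.3 and 97.1 CPM (0.53, interval 0.15 to 0.91). Samd5 (0.82), Ankrd61 (0.58), the co-chaperone Dnajb4 (0.48), the ubiquitin ligase Rnf217 (0.44), Pigb of glycolipid anchor synthesis (0.43) and Klk1b1 (0.93) completed this side with the mitochondrial mt-Co1 and mt-Rnr2. Klk1b1 has near-identical relatives, so its counts are uncertain. In lymph node AGF+ cells the log2 fold changes of the genes given here by library were -0.09 ± 0.55 (SE) for Neb, 0.18 ± 0.64 for Ehd3, -0.14 ± 0.29 for Adgre1, -0.06 ± 0.62 for Mrc1 and -0.63 ± 0.86 for Lif, and Tnni1 was not tested there.

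**Figure D3:**
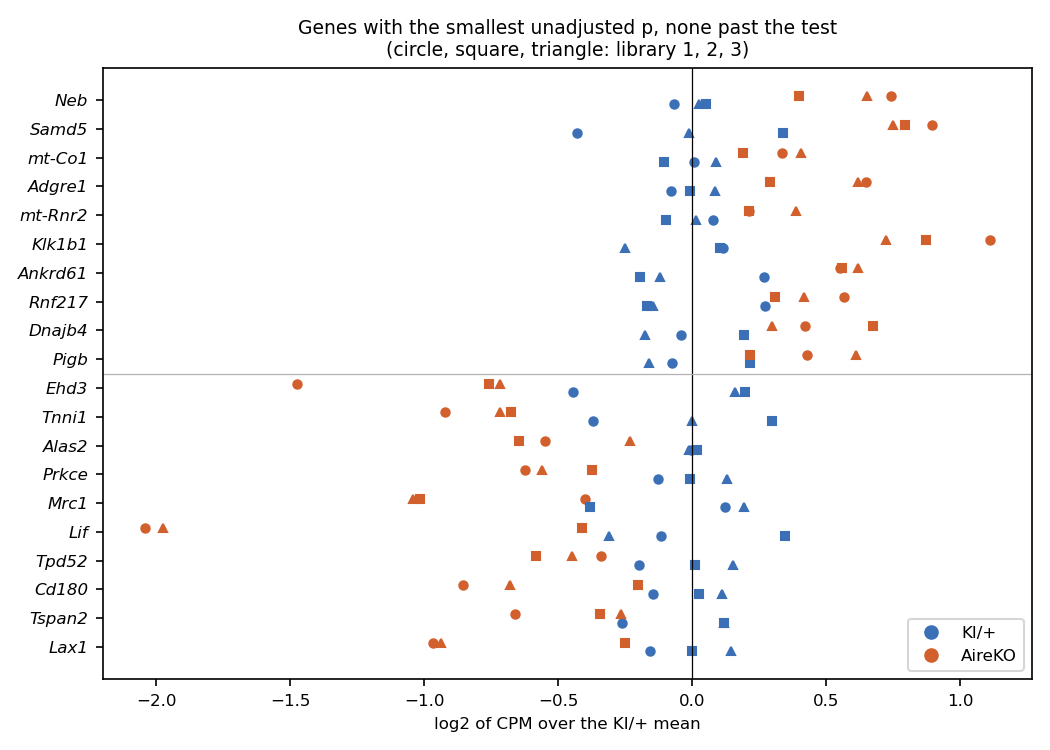
Level of each of 20 genes in the 6 marrow AGF+ libraries as log2 of CPM over the mean of KI/+ (x axis), by genotype, with 10 genes higher in AireKO above the line and 10 lower below it. KI/+ and AireKO points lie near each other in several rows, for example Pigb and Mrc1, and none of the 20 passed the adjusted test.

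Genes for proteins known to act with Aire gave no call. All 28 genes listed as Aire partners were tested, 0 passed, 0 had an unadjusted edgeR p under 0.05 (0 by DESeq2 and 1 by limma voom), and all 28 intervals lay within 2-fold. Over all genes tested the shares under 0.05 were 1.67% by edgeR, 0.819% by DESeq2 and 5.55% by limma voom. The median log2 fold change of the 28 was -0.03, beside -0.00 over all genes tested, where 80.6% of intervals were within 2-fold. The histone variant gene H2afx, with the smallest p of the list, was at 13.9, 17.2 and 13.9 CPM in KI/+ cells against 12.2, 11.1 and 13.2 CPM in AireKO libraries (-0.30).

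Tissue-restricted antigens that are classic readouts of Aire in the thymus were at or near 0 in both genotypes. Of 12 listed, 11 were in the table and 0 had enough counts to be tested, and 6 of them (Rbp3, Pcp4, Mup1, Fabp9, Apoa4 and Tyrp1) had no count in any of the 6 libraries. The 11 genes summed to 2.24, 2.49 and 1.43 CPM in KI/+ cells against 2.07, 4.27 and 1.78 CPM in AireKO libraries, which overlap. Ins2, which encodes insulin, was seen in 1 library of each genotype at 0.191 and 0.376 CPM. A fall of these genes on loss of Aire was not detectable at this depth.

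The DNA methylation machinery, in which Dnmt3l acts, gave no further call. Dnmt3a, the methyltransferase that Dnmt3l stimulates, was at 321, 360 and 375 CPM in KI/+ cells against 332, 339 and 384 CPM in AireKO libraries (log2 fold change 0.00, interval -0.22 to 0.22). Dnmt3b was at 11.4 to 20.5 CPM against 12.7 to 16.1 CPM (-0.05, interval -0.54 to 0.44), and the maintenance enzyme Dnmt1 was at 302 to 404 CPM against 326 to 395 CPM (0.00, interval -0.30 to 0.31). Of 18 tested genes in the list only Dnmt3l passed, and besides it only Tdg had an unadjusted edgeR p under 0.05. By DESeq2 2 of the 18 were under 0.05 and by limma voom 4. Over all genes tested the shares were 1.67% by edgeR, 0.819% by DESeq2 and 5.55% by limma voom. Tdg, a glycosylase that removes oxidised methylcytosine, was at 14.3, 15.5 and 17.3 against 11.3, 10.9 and 12.2 CPM (log2 fold change -0.45, interval -0.80 to -0.10). Tet2, an enzyme that oxidises methylcytosine, was at 337, 309 and 350 CPM against 422, 350 and 398 CPM, where KI/+ library 3 and AireKO library 2 met (0.23, interval -0.00 to 0.47).

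Genes that DNA methylation is known to silence gave no call either. Of 20 germline genes 3 were tested. In each of the 6 libraries 17 had fewer than 10 counts, and 7 of these had no count in any. A fall of those 17 genes was not detectable at this depth. The list summed to 19.2, 14.4 and 18.2 CPM in KI/+ cells against 20.8, 17.7 and 23.2 CPM in AireKO libraries, which overlap. Piwil2, a germline partner of small RNAs, was at 0.892 to 1.43 CPM against 1.53 to 2.25 CPM (log2 fold change 0.87, interval -0.06 to 1.81). Among imprinted genes 17 of 30 were tested and 0 passed, with a median of 0.09, and Plagl1, an imprinted zinc finger gene, had the smallest p (16.7, 12.8 and 13.2 CPM against 7.89, 9.62 and 7.64 CPM, -0.76, edgeR unadjusted p = 0.0337).

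Lists of DC identity were compared next, and 0 of their genes passed. Medians were 0.03 for 15 tested cDC1 markers, 0.20 for 15 cDC2 markers and 0.04 for 35 genes of mature CCR7 DCs, and the summed levels of the 3 lists overlapped between genotypes. Ccr7 was at 1214, 911 and 750 CPM in KI/+ cells against 1058, 928 and 1009 CPM in AireKO libraries. Within the mature list Fabp5, a fatty acid binding protein, was at 502, 470 and 505 against 718, 513 and 617 CPM (log2 fold change 0.33, interval 0.02 to 0.63). Tnfrsf9, the costimulatory receptor 4-1BB, was at 530, 487 and 492 against 773, 497 and 660 CPM (0.36, interval 0.01 to 0.70), with AireKO library 2 at the KI/+ level. These 2 of 35 had an unadjusted edgeR p under 0.05 (1.67% over all genes tested).

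Markers of plasmacytoid DCs were lower more often than higher, with 13 of 16 tested below 0 (7946 of 15503 over all genes tested), a median of -0.15 and 0 calls. By replicate number the medians were -0.57, -0.10 and -0.04, so that the pair numbered 1 was lowest. Ccr9, a chemokine receptor of these cells, was at 118, 92.5 and 98.1 CPM in KI/+ cells against 79.6, 80.1 and 70.1 CPM in AireKO libraries (log2 fold change -0.42, interval -0.75 to -0.10), and Cox6a2, a cytochrome oxidase subunit, was at 2.65, 5.55 and 3.21 against 1.31, 2.35 and 1.78 CPM (-1.07). Those 2 of 16 had an unadjusted edgeR p under 0.05, 1 by DESeq2 and 4 by limma voom. Over all genes tested the shares were 1.67%, 0.819% and 5.55%. The list summed to 1983, 2120 and 2170 CPM in KI/+ cells against 1902, 2054 and 2119 CPM in AireKO libraries, which overlap. The sort took cells without B220, a surface marker that plasmacytoid DCs carry. In sorted bulk cells fewer cells of a type and less RNA per cell cannot be told apart.

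Antigen presentation and T cell signals showed no call. The 18 genes of MHC class II presentation had a median of 0.01, and 17 of 18 intervals lay within 2-fold. H2-Aa, the MHC class II alpha chain, was at 1572, 1389 and 1332 CPM in KI/+ cells against 1453, 1378 and 1615 CPM in AireKO libraries. Ciita, its master regulator, was at 656, 692 and 575 against 517, 673 and 684 CPM. Costimulation and checkpoint ligands had a median of 0.10 over 18 tested genes. Their summed level of 3517, 3510 and 3586 CPM in KI/+ cells against 3658, 3601 and 3713 CPM in AireKO libraries did not overlap, although the means differed by little (3538 against 3657 CPM). Among the 34 lists the sums of mitochondrially encoded genes, B cell markers and progenitor genes did not overlap either, in differing directions.

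Chemokines and their receptors had a median of 0.05 (21 tested), cytokines and their receptors -0.03 (24 tested), and genes of RANK and NF-kB signalling, which induces Aire in the thymus, 0.01 (23 tested). Tnfrsf11a, which encodes RANK, was at 250, 220 and 253 CPM in KI/+ cells against 266, 232 and 239 CPM in AireKO libraries. In the cytokine list 1 of 24 tested genes had an unadjusted edgeR p under 0.05, against 0 by DESeq2 and 2 by limma voom. Over all genes tested the shares were 1.67%, 0.819% and 5.55%. The 1 gene by edgeR was Il12a, a subunit of interleukin 12 (7.75, 15.3 and 13 against 7.32, 8.12 and 7.64 CPM), and its KI/+ library 1 lay among the AireKO values. Innate sensors (26 tested) had a median of -0.04, cholesterol synthesis (23 tested) -0.04, the unfolded protein response (12 tested) -0.11, and immediate early and heat shock genes (22 tested) -0.08. Fosb, an immediate early transcription factor gene, was at 1.43, 3.06 and 3.03 against 0.376, 1.07 and 1.02 CPM (-1.64, interval -2.72 to -0.55).

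**Figure D4:**
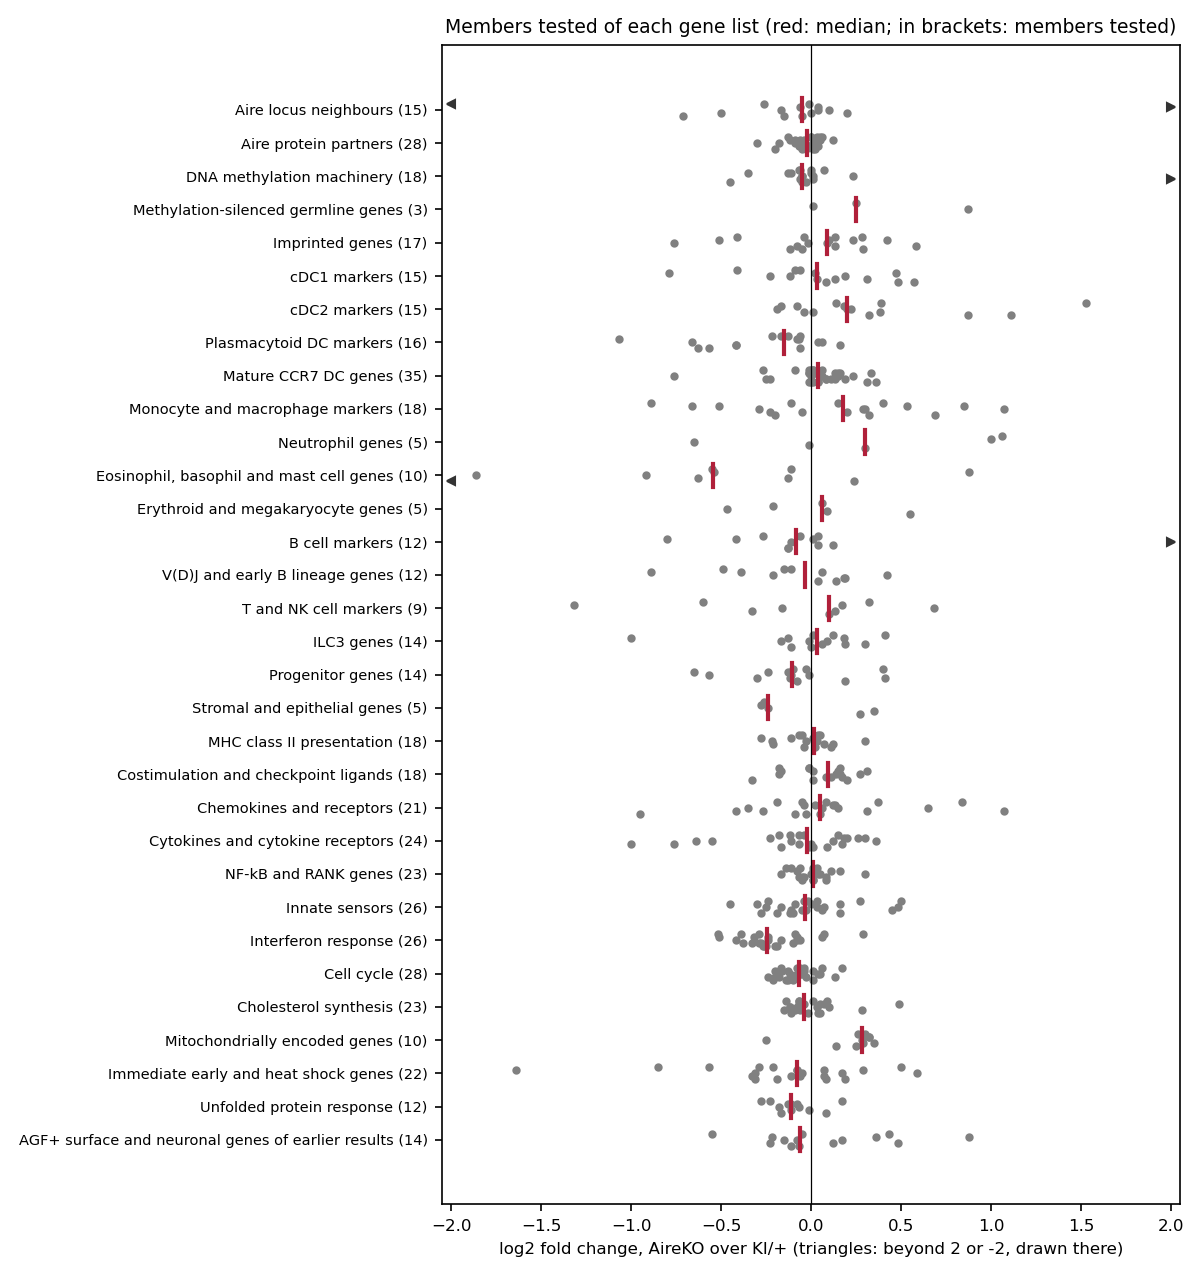
Log2 fold change of AireKO over KI/+ for each tested member of the gene lists, with 1 row per list, the number of members tested in brackets and the median in red. Members scatter around 0 in most rows, and the triangles, drawn at 2 or -2 for members beyond it, include Aire at -2.81 and Dnmt3l at 3.63.

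Interferon response genes were lower in AireKO libraries 1 and 3 and not in library 2. Their summed level was 1880, 2664 and 1885 CPM in KI/+ cells against 1229, 2828 and 1412 CPM in AireKO libraries, so that the groups overlap. The median log2 fold change of 26 tested genes was -0.25 (23 below 0, against 7946 of 15503 over all genes tested). Of the 26, 0 had an unadjusted edgeR p under 0.05 (0 by DESeq2, 1 by limma voom), beside 1.67%, 0.819% and 5.55% over all genes tested. By replicate number the medians were -0.81, 0.06 and -0.45, and without the libraries numbered 2 the fitted median was -0.59. Gbp2, a guanylate binding protein induced by interferon gamma, was at 281, 333 and 197 CPM against 134, 336 and 92.7 CPM. Cxcl9, a chemokine induced by interferon gamma, was at 21.6, 43.3 and 12.3 against 2.63, 30.6 and 6.62 CPM, and Iigp1, an interferon-inducible GTPase, was at 119, 207 and 118 against 22.2, 228 and 27.8 CPM. Library number and the Xist level move with these values, and their part in the result was not tested.

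The 13 listed genes encoded by the mitochondrial genome were higher in each AireKO library as a sum. The sum of the list was 10828, 9789 and 12061 CPM in KI/+ cells against 13740, 12232 and 14146 CPM in AireKO libraries, with no overlap. Among the 34 lists the sums of costimulation ligands, B cell markers and progenitor genes did not overlap either. The median log2 fold change of 10 tested genes was 0.29, 9 were above 0 (7557 of 15503 over all genes tested), 4 had an unadjusted edgeR p under 0.05 (259 of 15503, 1.67%), and 0 passed after adjustment. The cytochrome oxidase subunit gene mt-Co1 was at 3650, 3375 and 3861 CPM in KI/+ cells against 4581, 4136 and 4809 CPM in AireKO libraries (0.32, interval 0.10 to 0.53). The mitochondrial ribosomal RNA mt-Rnr2, which the list and its sum leave out, was at 11964, 10620 and 11464 against 13145, 13141 and 14859 CPM (0.28, interval 0.07 to 0.48). In lymph node AGF+ cells mt-Co1 had a log2 fold change of 0.44 ± 0.20 and mt-Rnr2 one of 0.40 ± 0.13, with 0 calls for either. In lymph node AGF− cells the values were 0.03 ± 0.20 for mt-Co1 and -0.07 ± 0.13 for mt-Rnr2. No source used here gives the RNA integrity of single libraries, and its part in these values was not tested.

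Cell cycle genes differed more between the KI/+ libraries than between the genotype means. Their sum was 2540, 3164 and 4504 CPM in KI/+ cells against 3004, 2927 and 3642 CPM in AireKO libraries, with a median log2 fold change of -0.07 and all 28 intervals within 2-fold. Mki67, which marks dividing cells, was at 440, 559 and 869 CPM against 557, 544 and 685 CPM.

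**Figure D5:**
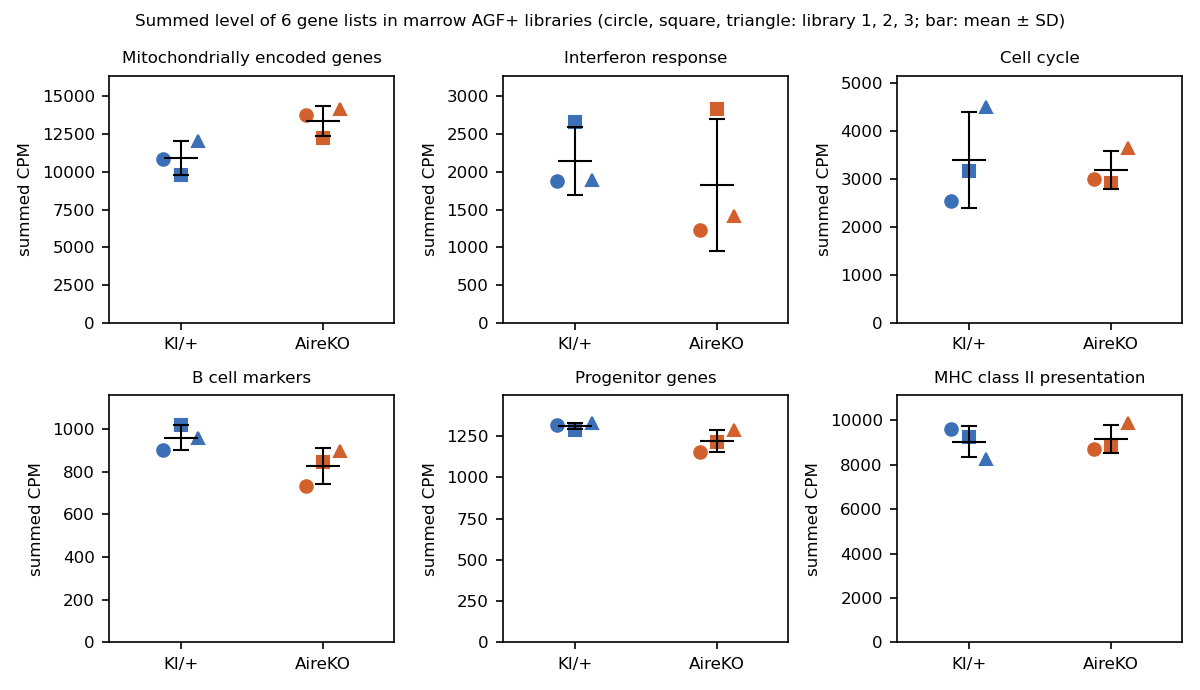
Summed level in CPM of the members of 6 gene lists in each marrow AGF+ library, where points are libraries and bars are the mean ± SD of 3. The mitochondrial sums do not overlap between genotypes (9789 to 12061 against 12232 to 14146 CPM), and the interferon sums are highest in both libraries numbered 2 (2664 and 2828 CPM).

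Markers of other cell types that the sort could hold were summed for each library. Neutrophil genes summed to 23.3, 12.4 and 6.60 CPM in KI/+ cells against 23.8, 13.2 and 6.37 CPM in AireKO libraries, so that libraries with the same number were alike. Monocyte and macrophage markers summed to 426, 269 and 194 against 520, 282 and 265 CPM, with library 1 highest in both genotypes. Erythroid and megakaryocyte genes summed to 390 to 517 against 390 to 413 CPM, with 5 globin and red cell genes without a count in any library. T and NK cell markers gave 342 to 420 against 413 to 482 CPM, stromal and epithelial genes 237 to 294 against 225 to 242 CPM, and eosinophil, basophil and mast cell genes 331 to 440 against 318 to 336 CPM. In each of these 6 lists 0 genes passed and the sums overlapped. The eosinophil, basophil and mast cell list had a median log2 fold change of -0.54, with 8 of 10 tested below 0 (7946 of 15503 over all genes tested). By replicate number its medians were -0.53, -0.17 and 0.15, and a fit of only the 6 AGF+ libraries gave -0.12.

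Among the 34 lists, the sums of 2 more did not overlap, besides those of costimulation ligands and mitochondrially encoded genes. Of single genes, 6.69% had groups without overlap. B cell markers gave 899, 1020 and 959 CPM in KI/+ cells against 732, 846 and 898 CPM in AireKO libraries, a gap of about 1 CPM. Ighm, the immunoglobulin heavy chain constant gene, was at 386, 471 and 484 against 300, 368 and 329 CPM (log2 fold change -0.42, interval -1.02 to 0.17). The median over the 12 tested B cell markers was -0.08, with 5 above 0 and values from -0.80 to 4.87. The gene at 4.87, the highest value over all genes tested, had a mean level below 10 CPM. Of the 12, 1 had an unadjusted edgeR p under 0.05 (1.67% over all genes tested), and it was higher in AireKO cells. Progenitor genes gave 1315, 1289 and 1327 against 1154, 1217 and 1289 CPM, where the groups touch at 1289 CPM to 4 digits, with a median of -0.10 over 14. Early B lineage genes with V(D)J recombination summed to 783 to 875 against 779 to 895 CPM, and ILC3 genes to 1173 to 1364 against 1209 to 1346 CPM.

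Genes that earlier results of these data had named as marking AGF+ cells gave no call. All 14 were tested, 0 passed and the median was -0.06. Ache, which encodes acetylcholinesterase, was at 9.59, 17.6 and 15 CPM in KI/+ cells against 8.83, 15 and 17.3 CPM in AireKO libraries (-0.05, interval -0.73 to 0.63), and Pappa2, a protease of growth factor binding proteins, was at 11.8, 7.66 and 7.67 against 12, 9.19 and 16.8 CPM (0.48, interval -0.17 to 1.13). Siglecf, a sialic acid binding receptor, had the smallest p of the list (2.45, 1.72 and 1.43 against 3, 4.91 and 2.29 CPM, edgeR unadjusted p = 0.0271).

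Over the 8858 genes at 10 CPM or more in both tissues, the fold changes of marrow and lymph node AGF+ cells had a Pearson r of 0.01 and a Spearman rho of -0.06 across genes, and r was -0.06 without Aire and Dnmt3l. Genes are not independent replicates, and the values are a description.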

How the data were processed

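RNA was measured in sorted cells, from 1 ng of RNA per library by Ovation SoLo libraries and paired 150 bp reads, per the labels' protocols. Per the submitters' processing notes, the tools were HTSeq 0.11.2, STAR 2.7.3a, edgeR 3.38.1, fastp 0.20.0, Picard 2.21.1 and SAMtools 1.9, and the build mm10. No source used here gives the annotation release or strand setting. The deposited table holds raw read counts made by the authors for 55471 genes, and 327 of them (0.0139% of counts) have no symbol in GENCODE vM21. A normalized table was not used.

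Counts were tested with edgeR 4.0.16 (R 4.3.3) quasi-likelihood fits with TMM, filterByExpr by group and Benjamini-Hochberg adjustment over all genes at 0.05, over the 9 marrow libraries, the 12 of lymph node, or all 21 for the interaction. Alternatives used DESeq2 1.42.0, limma 3.58.1 and other settings, fits without single libraries among them. Standard errors are the unshrunken fold change over the root of F.

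Deviations from the group mean of KI/+ and AireKO libraries with the same number correlated at 0.361, 0.383 and 0.177, each above 0.1. Without genes of the sex chromosomes the values were 0.343, 0.276 and 0.154. Libraries with unlike numbers gave -0.309 to -0.0744, and because deviations within a group sum to 0, the values are not independent. The labels state no pairing, so the main test had no block and a block was tried as an alternative. Members and lists were chosen with earlier results of these data known. Named are the genes around Aire, all called genes, the 10 higher and 10 lower genes with the smallest p, no overlap and a mean log2 CPM of 3 or more, up to 4 members of each list with the smallest p, and defining markers. The other list members named (among them Dnmt1, Dnmt3a, Dnmt3b, Ciita, H2-Aa, Mki67, Tnfrsf11a, Ache, Cxcl9, Iigp1 and Ins2) were chosen after their values were seen. Some genes are not reported here. The fit was tested on simulated data. In the marrow comparison it recovered 51 of 100 genes changed 2-fold and 88 of 100 changed 4-fold, with 9 false calls. In the interaction it recovered 18 and 72 of 100, with 3 false calls. Far more genes changed in the simulation than were called in the data, and the adjustment is milder when more genes change. No effect of library number was simulated either, so these shares can overstate the recovery in the data. Changes of 2-fold could thus be missed.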

Additional observations from a re-analysis of the deposited data

How the results depend on the processing

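With library-size scalings, filters, tools and sample sets exchanged and each library left out, Aire and Dnmt3l kept their direction in all 38 alternatives and their call in 37. Their log2 fold changes ranged from -3.08 to -2.66 and from 3.37 to 3.83. Leaving out 1 library gave the same ends for Aire (adjusted p of 4.1e-04 to 0.00592) and 3.37 to 3.80 for Dnmt3l (1.4e-04 to 0.00411), and 2 calls each time. The exception was the fit without the libraries numbered 2, with 1 call and Aire at -2.67 (adjusted p = 0.161). It rests on 4 AGF+ libraries, and the cause was not tested. The replicate block gave 2 calls, with Aire at -2.81 (adjusted p = 7.0e-04) and Dnmt3l at 3.6 (3.7e-05), and changed no call.

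Without a filter on low counts the test made 26 calls of 31384 genes, 13 in each direction, of which 25 had been tested before and 8 had groups without overlap. The interaction test then made 17 calls. In that setting edgeR's median total degrees of freedom rose from 11.2 to 188304, so that the spread was taken almost wholly from the trend over all genes. Neb (adjusted p = 0.024), Ehd3 (0.00138), Mrc1 (0.00976) and Lif (0.00425) passed only there. DESeq2, voom, glmTreat, an adjusted p under 0.01 and the stricter filter made 2 calls each.

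Of 594 refits for 33 genes near Aire or with the smallest p, 572 left direction and call as they were and 18 changed the sign of a value close to 0. With 1 library left out, values ranged from -0.14 to 0.43 for Pfkl, -0.08 to 0.10 for Ube2g2, -0.02 to 0.12 for Sumo3, -0.02 to 0.10 for Pttg1ip, -0.13 to 0.08 for Itgb2, -0.09 to 0.26 for Cstb and -0.21 to 0.09 for Pwp2. Without the libraries numbered 2 Ube2g2 was at 0.16 and Itgb2 at 0.07, under voom Pttg1ip was at -0.01, and under the replicate block Itgb2 was at 0.01 and, with 6 libraries, 0.00. Of 136 list medians recomputed under settings added after the data were seen, 126 moved by less than their spread over replicate numbers and 10 by more.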

Other observations

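The genes below were chosen after their values were seen. Capn11, a calpain protease gene on chromosome 17 (45630204 to 45659325 of GRCm38), stood at 5.55 to 13.7 CPM in all 8 KI/+ libraries numbered 1 or 3, over both tissues and all sorts, and at 0 to 0.427 CPM in the 13 others. Among 21692 genes with at least 30 counts over the 21 libraries it was the only one in which every one of those 8 lay above every other library, and 0 genes had the reverse. In marrow AGF+ cells it was at 7.75, 0.383 and 8.20 CPM in KI/+ cells against 0, 0.427 and 0.255 CPM in AireKO libraries, with a log2 fold change of -4.51 (95% interval -8.04 to -0.97, edgeR adjusted p = 1).

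Mmp13, a collagenase gene, was at 22.8 CPM in KI/+ library 1 and at 0 to 0.383 CPM in the other 5 marrow AGF+ libraries. The eosinophil granule genes Epx and Ear6 were at 10.4 and 6.93 CPM in that library, at 2.25 and 1.13 CPM in AireKO library 1, and at 0 to 0.214 CPM in the 4 libraries numbered 2 or 3. Fn1, which encodes fibronectin, was at 125, 38.1 and 26.6 CPM in KI/+ cells against 159, 36.5 and 52.2 CPM in AireKO marrow cells, so that libraries numbered 1 were highest in both genotypes. In lymph node AGF+ cells Fn1 fell short of a call at a log2 fold change of -3.01 (edgeR adjusted p = 0.0607), and the difference between the tissues, 3.39, had an edgeR adjusted p of 1.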
